A study of Mus musculus with 4 samples.

Results

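Ebf1-positive cells are a small group of cells, most with GABA enzymes, found among cortical cells of E18.5 mouse fetuses, named for Ebf1, a transcription factor of striatal projection neurons. The members were chosen by measured values. A cell was taken when it held at least 1 unique molecular identifier (UMI, a tag that counts each captured transcript once) of Ebf1 and of at least 2 of Isl1, Zfp503, Gucy1a3, Syt6, Six3 and Foxp1, and none of Top2a, Reln and Eomes. Cells whose barcode occurs under all 4 library prefixes, 224 in number, were left out. The rule gave 100 cells of 6562 in the table, or of the 6338 kept.

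Cells sorted as CD24+ and CD45- from the cortex were compared between 2 Setd5+/+ (WT) and 2 Setd5+/- (Het) fetuses of strain C57BL/6J, the latter carrying the Setd5 GFP transgenic allele. Setd5 encodes a SET domain protein that associates with histone deacetylase complexes. Each fetus gave 1 droplet library that reads the 3′ end of transcripts. The libraries are named WT3, WT6, Het5 and Het9 after the prefixes of their cells.

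Striatal projection neurons arise in the lateral ganglionic eminence from progenitors that express Gsx2 and the Dlx genes. They make GABA, and as they differentiate they turn on Bcl11b, Foxp1, Foxp2 and Meis2. Isl1 and Ebf1 mark the branch of the direct pathway, whose mature neurons carry the dopamine receptor Drd1 and the peptides of Tac1 and Pdyn, while neurons of the indirect pathway carry Drd2, Adora2a and Penk and depend on Six3 and Sp9.

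The members held 97101 UMIs in WT3, 196863 in WT6, 31796 in Het5 and 98225 in Het9, from 23, 45, 9 and 23 cells. Levels are given as mean counts per 10000 UMIs over the members of a library, and 1 UMI in 1 cell then adds about 0.103, 0.0508, 0.315 and 0.102. Het5, with 9 cells, was the least precise. The median member had 3801 UMIs. Of the members, 98 had a barcode found in 1 library and 2 a barcode found in 2 libraries. Doublet scoring called 2 members doublets, 1 in WT6 and 1 in Het9, and these were kept. The labels say that the libraries are separate samples, and p-values between genotypes measure the spread between 4 fetuses.

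The genes of the rule chose the cells, so their values are a description with no test. Ebf1 (GRCm38, chr11:44617317-45008091, plus strand) averaged 51.1 in WT3, 59.9 in WT6, 38.8 in Het5 and 50.6 in Het9. Single members held 1 to 69 Ebf1 UMIs, with a median of 18. Isl1, a LIM homeodomain factor, was found in 77 members, Foxp1 in 69 and the zinc finger repressor Zfp503 in 65. Syt6, a synaptotagmin, was found in 36 members, Gucy1a3, a subunit of soluble guanylate cyclase, in 27 and Six3 in 14. Just inside the limit of 2 markers stood 40 cells, 38 had 3, 16 had 4 and 6 had 5.

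Cells with Ebf1 and only 1 or none of the 6 markers differed, as a group, from the members in content. Just outside stood 70 cells with 1 of the 6 markers, with a median of 1 Ebf1 UMI, of which 49 held Neurod2 or Neurod6, factors of excitatory neurons, and 15 held Gad1 or Gad2, the enzymes that make GABA. A further 99 cells had Ebf1 and none of the 6, and 94 of them held Neurod2 or Neurod6. Both counts cover only cells with no UMI of Top2a, Reln or Eomes, while 560 kept cells held Ebf1 in all. Of the members, 78 held Gad1 or Gad2 and 25 held Neurod2 or Neurod6. At least 1 Ebf1 UMI was seen in 6.88% of 1642 excitatory neurons (median 5503 UMIs), a class that should lack the gene, and in 11.3% of 657 GABA cells without Lhx6 (median 4191 UMIs).

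**Figure D1:**
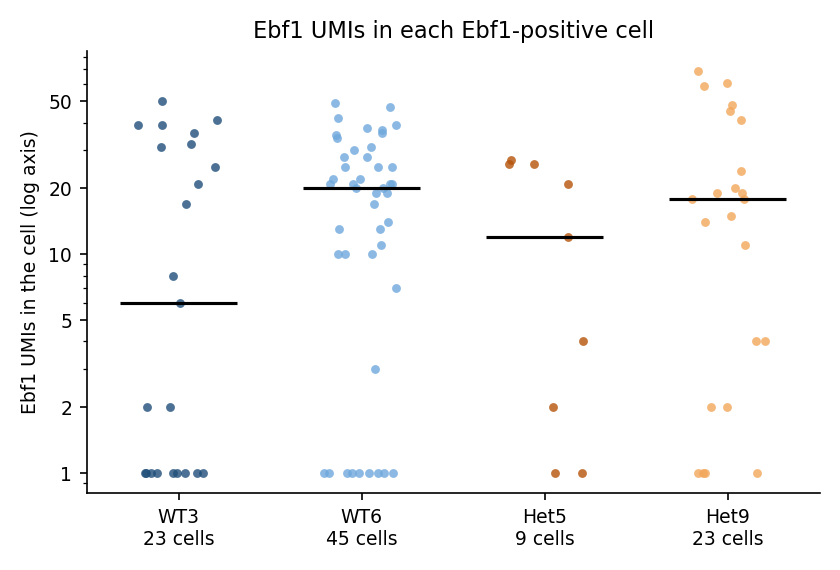
Ebf1 UMIs in each of the 100 Ebf1-positive cells (log axis) by library; 1 point is a cell and the bar is the median of the library. Points form a band at 1 to 4 UMIs and another at 10 or more in every library, with 3 cells between them.

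The 15 leading genes outside the rule were led by Zfhx3, Rarb, Foxp2, Rgs2 and Plk2. Fold values here compare members with all other kept cells after adding 0.1 to both levels. They carry no test, because the choice of the cells fixes them. Zfhx3, a homeobox and zinc finger factor, averaged 7.03, 7.23, 9.42 and 5.18 in WT3, WT6, Het5 and Het9 and was found in 78 members, 11.9-fold above the rest. Foxp2, a forkhead factor, averaged 2.999, 4.10, 5.37 and 3.45 and was found in 50 members, 8.92-fold above the rest. Bcl11b, which encodes Ctip2, averaged 17.9, 19.3, 27.7 and 22.5, 7.06-fold above the rest, in 95 members. These levels lay close together over the 4 libraries.

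Rarb, a retinoic acid receptor, was found in 18 members (9.33-fold), Rgs2, a regulator of G protein signalling, in 52 (8.75-fold) and the kinase gene Plk2 in 35 (8.43-fold). Dlk1 (8.07-fold), Cntn5 (7.86-fold) and Cpne5 (7.28-fold) were each found in under 20 members, and 18 of the 43 Dlk1 UMIs came from 1 WT6 cell. Meg3, an imprinted long noncoding RNA, and Islr2, an axonal membrane protein, were found in 97 members each. Rph3a, Zcchc12 and Gucy1b3, the partner subunit of Gucy1a3, completed the list with Igfbp7. All 22 Igfbp7 UMIs lay in 1 WT6 cell, which also held all 12 UMIs of Rgs5 and all 8 of Vtn, genes known from pericytes. That cell had 13 Ebf1 UMIs and no UMI of Isl1, Gad2 or Bcl11b, and leaving it out kept the count of genes called between genotypes at 1. The 5 lowest genes were Neurod1, Mfap4, Nfix, Lhx2 and Neurog2, with Neurod1 in 1 member and in 34.4% of the rest.

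Among the leading genes, promoters were examined for the palindrome that EBF proteins are known to bind. RefSeq windows (GRCm38.p6, from 250 bases before to 50 after the start) were matched for 13 of the 15 leading genes, Foxp2 and Gucy1b3 having none. The core CCCNNGGG, the same on both strands, and the longer form that adds T before and A after it, and so always holds the core, were counted. The longer form was in 0 of the 13, against 1.06% of the windows of 27025 genes. The core was in 6 of 13 (Bcl11b, Igfbp7, Islr2, Meg3, Plk2 and Zcchc12), against 15.4% of all genes and 21.0% of the 11950 genes that are also in the table. Bcl11b (chr12:108003365-108003664, minus strand) and Plk2 (chr13:110394794-110395093, plus strand) are shown as members of the leading list with the core, which is in capitals.
Bcl11b: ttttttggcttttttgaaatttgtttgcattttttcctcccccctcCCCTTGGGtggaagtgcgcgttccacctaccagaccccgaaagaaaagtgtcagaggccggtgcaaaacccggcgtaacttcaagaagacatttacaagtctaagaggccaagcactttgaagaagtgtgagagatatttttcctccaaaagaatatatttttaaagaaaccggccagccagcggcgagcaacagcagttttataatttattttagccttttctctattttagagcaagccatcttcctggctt
Plk2: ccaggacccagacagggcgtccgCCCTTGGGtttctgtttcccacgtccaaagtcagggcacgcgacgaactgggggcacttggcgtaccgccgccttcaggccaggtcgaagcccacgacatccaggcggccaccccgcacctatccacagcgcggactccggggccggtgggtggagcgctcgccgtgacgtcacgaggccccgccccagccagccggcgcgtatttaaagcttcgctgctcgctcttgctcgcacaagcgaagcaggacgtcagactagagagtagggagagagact
Such a match describes the letters and does not show binding.

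The list of 26 striatal transcription factors was read against the other GABA cells, 583 cells with Gad1 or Gad2 and a Dlx gene but neither Ebf1 nor Lhx6. Of 19 factors outside the rule with a mean of at least 0.1 in either class, 8 were higher in the members in 4 of 4 libraries (Rarb, Foxp2, Zfp521, Sox8, Bcl11b, Bcl11a, Meis2 and Tle4) and 4 were lower (among them Tshz1, Sp9 and Mef2c). Over the 8361 genes compared, 8.44% were higher in 4 of 4 libraries and 12.6% lower. Foxp2 differed by 2.51 on the log2 scale (SD 0.268 over 4 libraries) and Bcl11b by 1.69 (SD 0.335). Meis2, a TALE homeodomain factor, averaged 29.1, 30.04, 32.1 and 31.0 in the members, 0.88 above the other GABA cells (SD 0.196). The libraries agreed closely for these 3 factors, while Rxrg and Ikzf1 were spread widely.

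**Figure D2:**
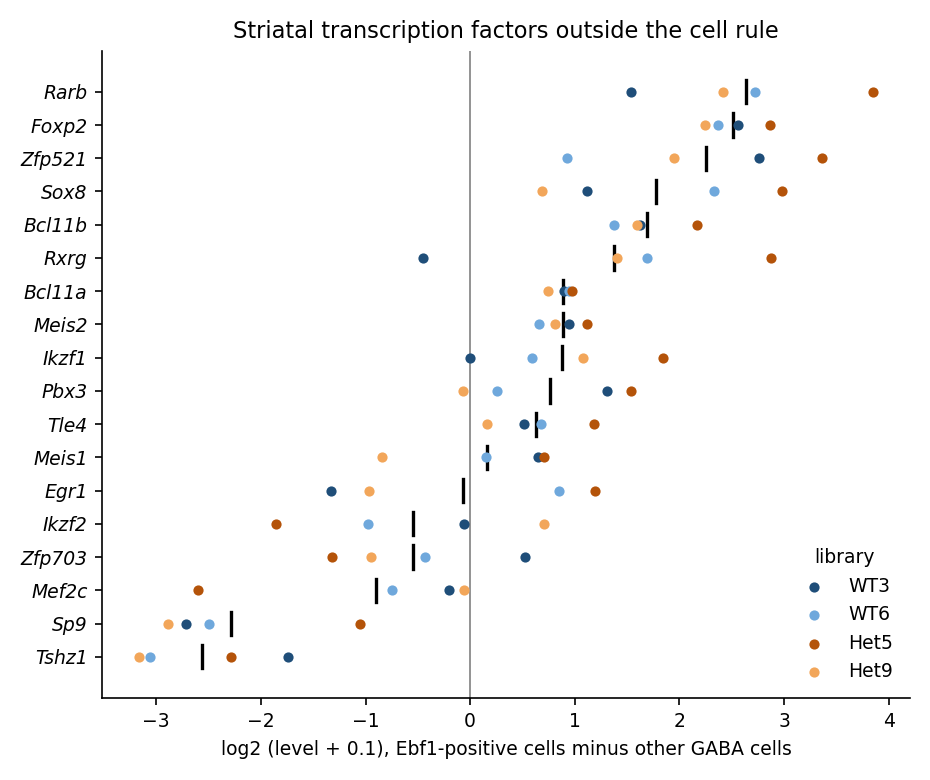
Difference in log2(level + 0.1) between Ebf1-positive cells and the other GABA cells of the same library for striatal transcription factors outside the cell rule; points are libraries and the black tick is their mean. The points of Foxp2, Bcl11b, Bcl11a and Meis2 lie close together above 0, those of Sp9 below it.

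Factors of the subpallial lineage ran the other way. Of 15 listed genes, 10 were lower in the members than in the other GABA cells in 4 of 4 libraries and none was higher. Over all 8361 genes compared, 12.6% were lower and 8.44% higher. The comparison cells, however, had been required to hold a Dlx gene. Dlx2, a homeobox factor of GABA progenitors, averaged 1.57, 0.961, 1.24 and 1.34 in the members against a mean of 6.48, and Sp9 averaged 0.569, 0.708, 2.90 and 0.597 against 4.99. Against excitatory neurons, 7 of 8 listed genes above the filter were higher in 4 of 4 libraries and none was lower (9.33% and 15.98% of all 8456 genes compared).

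Genes of mature striatal neurons were rare in the members. Of the direct pathway, Drd1 was found in 1 member and Tac1 in 5, while Pdyn was seen in 0 of 100 cells, which allows a share of cells with a UMI of up to 3%. Of the indirect pathway, Adora2a was found in 3 members and Penk in 0 of 100. Ppp1r1b, which encodes DARPP-32, was found in 2 members. The phosphodiesterase gene Pde10a was more frequent, in 13 members. Such limits cover counting error only. Markers of young neurons were present, with Tubb3 in 99, Dcx in 84 and Stmn2 in 95 members.

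GABA was represented by Gad2, which averaged 4.95, 5.15, 7.25 and 4.86, above the other GABA cells in 4 of 4 libraries although those had been chosen for Gad1 or Gad2. Gad1 was found in 13 members only, with levels of 0.616, 0.434, 0.258 and 0.346, below the other GABA cells in 4 of 4 libraries (mean difference -1.67 on the log2 scale, SD 0.471). The vesicular transporter gene Slc32a1 was found in 30 members. Of 25 listed genes for glutamate and GABA receptors in the table, 17 had a UMI in the members, and Gria2, an AMPA receptor subunit, was found in 60 members, lower than in excitatory neurons in 4 of 4 libraries.

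Axon guidance genes were mixed in direction. Against excitatory neurons 5 of 27 genes were higher and 12 lower in 4 of 4 libraries (9.33% and 15.98% of all 8456 genes), and the rest had no one direction. Against the other GABA cells 4 of 26 were higher and 3 lower (8.44% and 12.6% of all 8361 genes). Ephb1, an Eph receptor, averaged 0.213, 0.801, 0.889 and 1.43, higher by 1.91 on the log2 scale (0.45 to 2.67 over the libraries). Nrp1, the semaphorin receptor neuropilin, averaged 2.13, 0.358, 0 and 0.691 and was lower by 3.92, with Het5 at 0. Robo1, a receptor for Slit proteins, was higher than in excitatory neurons in 4 of 4 libraries, and Robo2 was higher than in the other GABA cells.

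Most marker lists of other classes were low in the members. Lhx6 was found in 1 member, and the summed level of 8 interneuron markers ran from 0.294 to 0.765 over the libraries, against 17.96 to 24.4 in Lhx6 interneurons. The 8 excitatory markers summed to 2.65, 0.843, 0.739 and 4.27, against 32.8 to 36.6 in excitatory neurons, with Slc17a7 at 0. In the other GABA cells they summed to 1.31, 0.557, 2.86 and 2.34, below the members in WT3, WT6 and Het9 and above them in Het5. The 7 pericyte or mesenchyme markers in the table were at 0 in 3 libraries and summed to 1.13 in WT6, all from the 1 cell named above. The 8 radial glia markers were not low by this measure. They summed to 2.47 to 4.66 over the libraries, against 3.54 to 4.90 in excitatory neurons and 8.15 to 13.6 in the other GABA cells, and 56 members held at least 1 of them and 15 at least 2. Hemoglobin genes summed to 7.65, 8.17 and 5.27 in WT3, WT6 and Het5 and to 39.8 in Het9, where 1 cell held 193 of 308 hemoglobin UMIs.

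Members fell into a band with few and a band with many Ebf1 UMIs. A split at this gap, made after the values were seen, gave 33 cells with 1 to 4 UMIs, 3 with 6 to 8 and 64 with 10 or more. Of the low cells, 24 held only 1 Ebf1 UMI. Excitatory neurons, which should lack the gene, held at least 1 in 6.88% of cells. Whether both bands are the same kind of cell was not tested. The low band held 11, 10, 4 and 8 cells in WT3, WT6, Het5 and Het9 and the high band 10, 34, 5 and 15. The low band made up 47.8% of the members of WT3 and 22.2% of those of WT6. Pooled over the libraries, depth was similar, with medians of 4084 UMIs in the low and 3614.5 in the high band. Within libraries, the low band had the higher median in WT3 and WT6 and the high band in Het5 and Het9.

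Cells with many Ebf1 UMIs held more of several striatal factors. Foxp1, a gene of the rule, averaged 8.67, 17.6, 18.1 and 18.9 in the high band of WT3, WT6, Het5 and Het9, against 1.14, 3.45, 8.82 and 6.73 in the low band. Foxp2 averaged 5.81, 5.16, 9.08 and 4.91 against 0.792, 0.939, 0.725 and 0.714. In both genes the high band lay above the low band in each library. Rarb was found in 0 of 33 low cells, which allows a share of cells with a UMI of up to 9.09%. It averaged 1.57 over the cells of the high band, and Plk2 averaged 2.84 against 0.0849. Robo2, Ephb1, Pde10a, Bcl11a, Bcl11b, Gad2 and Gap43 were also higher in 4 of 4 libraries.

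Factors of the subpallial lineage were mixed between the bands. Dlx2 averaged 3.29, 1.91, 2.21 and 3.59 in the low band and 0, 0.711, 0.465 and 0.135 in the high band. Dlx6 ran the other way in 4 of 4 libraries, with 0.179, 0.436, 0 and 0.927 in the low and 2.66, 1.76, 1.46 and 2.03 in the high band, and Dlx5 did so in 3 of 4. Dlx1, Sp9 and Sox2, a progenitor factor, were also lower in the high band in 4 of 4 libraries. Six3 and Gucy1a3 were lower there too, but they are genes of the rule, so this is a description only. Ccnd2, which encodes cyclin D2, averaged 7.41, 17.8, 0.725 and 7.25 in the low band and 1.32, 1.55, 1.62 and 0.946 in the high band. It was lower in the high band in 3 of 4 libraries, with Het5 the other way, and 1 WT6 cell held 66 of the 117 UMIs of WT6 and 1 Het9 cell 35 of the 45 of Het9. Isl1, of the rule, averaged 6.198, 7.39, 12.9 and 7.42 in the low band and 7.14, 6.74, 2.63 and 5.47 in the high band, so it was lower there in 3 of 4 libraries. Over all cells of a band Meis2 averaged 29.2 and 30.3 and Zfhx3 6.80 and 6.91. Of all 7572 genes above the filter outside the rule, 6.27% were higher and 4.69% lower in the high band in 4 of 4 libraries. Of 17 striatal factors outside the rule 5 were higher and 1 lower, and of 8 subpallial lineage factors 1 was higher and 3 lower. Hbb-bs, a hemoglobin gene, averaged 40.9 in the low band of Het9 and 2.99 to 4.42 in that of the others, and its part in the split was not tested. Malat1, a nuclear long noncoding RNA, averaged 371, 278, 491 and 350.3 in the low band and 550.2, 599.7, 555 and 463 in the high band, higher in 4 of 4 libraries. Nfib, a factor of the nuclear factor I family, averaged 4.99 over the low and 1.08 over the high cells and was lower in the high band in 4 of 4 libraries. The part of either in the band differences was not tested.

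**Figure D3:**
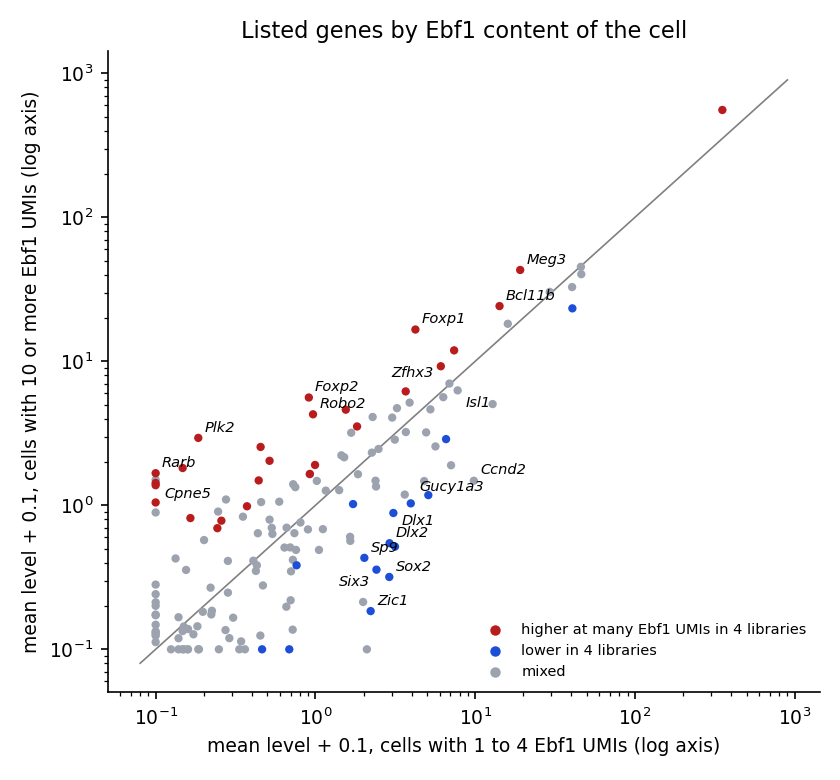
Mean level + 0.1 of listed and leading genes in Ebf1-positive cells with 1 to 4 Ebf1 UMIs (33 cells, horizontal, log axis) and with 10 or more (64 cells, vertical, log axis); the line marks equal levels and colour gives the direction in the 4 libraries. Foxp1, Foxp2, Plk2 and Rarb lie above the line, Dlx1, Dlx2, Sp9, Six3 and Sox2 below it, and of these Foxp1 and Six3 are genes of the rule.

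Isl1 divided the members in another way. The 23 members without an Isl1 UMI entered through 2 or more of the other 5 markers, so their higher shares with Gucy1a3, Syt6, Six3 and Foxp1 carry no test. Outside the rule, Sp9 was found in 39.1% of members without and 14.3% of members with Isl1, with mean levels of 2.38 and 0.388. Zfp503, of the rule, ran the other way, in 47.8% of members without and 70.1% of members with Isl1. Gad2 was found in 52.2% of members without and 84.4% with Isl1 (47.1% and 69.5% when thinned to 3000 UMIs), and Stmn2 in 82.6% and 98.7%. Tac1 was found in 5 of 77 members with Isl1 and 0 of 23 without, and Adora2a in 0 of 77 with and 3 of 23 without. Thinned to 3000 UMIs, Sp9 was found in 23.5% of 17 and 11.9% of 59 cells. Counts of this size give values only.

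The share of Ebf1-positive cells was compared between genotypes to ask whether the Het fetuses held fewer. It was 1.65% of the kept cells in WT3 (95% exact binomial interval 1.05 to 2.46), 2.37% in WT6 (1.73 to 3.16), 0.544% in Het5 (0.249 to 1.03) and 1.66% in Het9 (1.05 to 2.47). Het9 lay above WT3 (1.656 against 1.646), so the genotypes overlapped. Without called doublets they did not, with 1.66 and 2.34 in WT and 0.548 and 1.597 in Het (exact two-sided permutation test, p = 0.333). The Het mean was lower by 0.909 percentage points, within the spread between libraries (exact two-sided permutation test, p = 0.667; the smallest p that 2 against 2 fetuses can give is 0.333). Leaving out Het5 brought the difference to -0.353, WT6 to -0.546 and Het9 to -1.46 percentage points. Among members with at least 10 Ebf1 UMIs the difference was -0.562 percentage points (p = 0.667 in the same exact test). Cells with as many Ebf1 UMIs that missed the rule are not in this share, and numbered 3, 6, 9 and 4 in WT3, WT6, Het5 and Het9. The intervals cover counting error only. UMIs per member did not separate the genotypes either, with medians of 4016, 3673, 3614 and 4080.

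**Figure D4:**
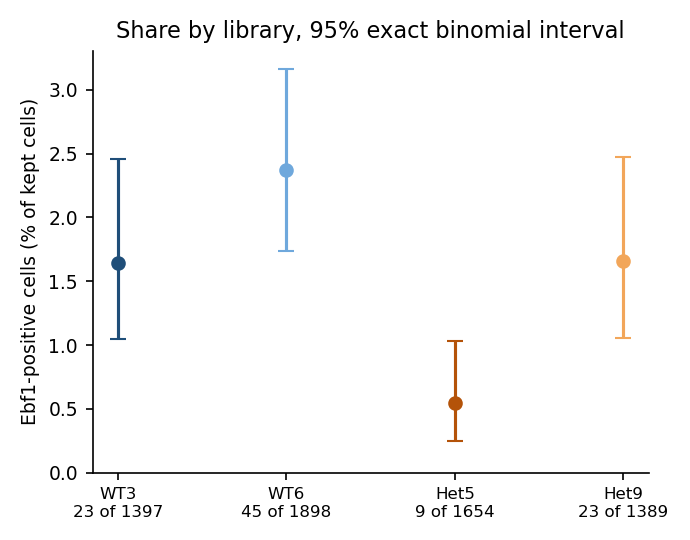
Ebf1-positive cells as a percentage of the kept cells of each library, with 95% exact binomial intervals that cover counting error only. Het5 is lowest at 0.544% and WT6 highest at 2.37%, while WT3 and Het9 are nearly level.

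Within the members, genotypes were compared with limma on log2(level + 0.1), with Benjamini-Hochberg adjustment over the 7579 genes with a mean of at least 0.1. Called genes numbered 1 (0.0132% of genes tested), and 291 (3.84%) had an unadjusted p under 0.05. The gene called was Xist, the RNA that silences an X chromosome in females. It averaged 26.2 in WT3 and 27.1 in WT6 and was at 0 in Het5 and Het9, at least 42.7-fold lower against a floor of 3 counts per library (adjusted p = 1.78e-14, limma). The Y-linked gene Eif2s3y was at 0 in both WT libraries and averaged 0.593 in Het5 and 1.24 in Het9. The same fetuses gave the cells of every class. Genotype and sex therefore cannot be told apart in the members or in any other comparison between genotypes here.

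Setd5 (chr6:113077365-113153435, plus strand) averaged 1.05 in WT3, 0.426 in WT6, 0.972 in Het5 and 0.442 in Het9. The genotypes overlapped, and the log2 fold change was -0.03 (SE 0.635, limma adjusted p = 0.997), on 10, 10, 3 and 4 UMIs. Over all kept cells Setd5 averaged 1.20, 1.09, 0.530 and 0.584, a log2 fold change of -0.92 (SE 0.0789, adjusted p = 0.00684 in the same kind of fit). The lower Het level seen over all cells was not seen within the members, and whether their few Setd5 UMIs could show it was not tested.

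The striatal factors outside the rule did not pass the test. Of 17 tested, 0 were called (0 of 7579 genes were called higher and 0.0132% lower), and their median log2 fold change was 0.09 against -0.07 over all genes tested. Foxp1, a gene of the rule given as a description, averaged 4.50 in WT3, 14.0 in WT6, 14.0 in Het5 and 14.7 in Het9. WT3 alone was low, and it was lowest within the low band (1.14 against 3.45 to 8.82) and within the high band (8.67 against 17.6 to 18.9) too. Rxrg, a retinoid X receptor, averaged 0, 0.289, 0.883 and 0.552 (log2 fold change 2.02, SE 0.892, adjusted p = 0.959 by limma), the 1 factor outside the rule with an unadjusted p under 0.05. Bcl11b differed by 0.42 (SE 0.217) with both Het libraries above both WT libraries, as for 33.2% of all genes tested, where groups of 2 do not overlap in 1 direction or the other. Isl1, also of the rule, averaged 6.45, 6.99, 7.20 and 6.15 in the members that it helped to choose.

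Over all kept cells, to which the rule was not applied, Isl1 was lower in the Het libraries, where it averaged 0.210 (Het5) and 0.220 (Het9), against 0.448 (WT3) and 0.558 (WT6). That log2 fold change was -0.93 (SE 0.101, limma adjusted p = 0.0289), in a fit that called 7 genes (0.087% of 8047), 4 lower in Het (0.0497%) and 3 higher (0.0373%), with 4.42% at an unadjusted p under 0.05. The Ebf1 level over all kept cells was 1.28, 1.88, 0.596 and 1.08, with adjusted p = 0.809 by limma. A level over all cells joins the number of cells that hold a gene with the amount in each. It also takes in cells outside the members, and the part of the members in the Isl1 difference was not tested. The rule admits no member without Ebf1, and Isl1 was 1 of the markers that admitted 77 of the 100 members.

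**Figure D5:**
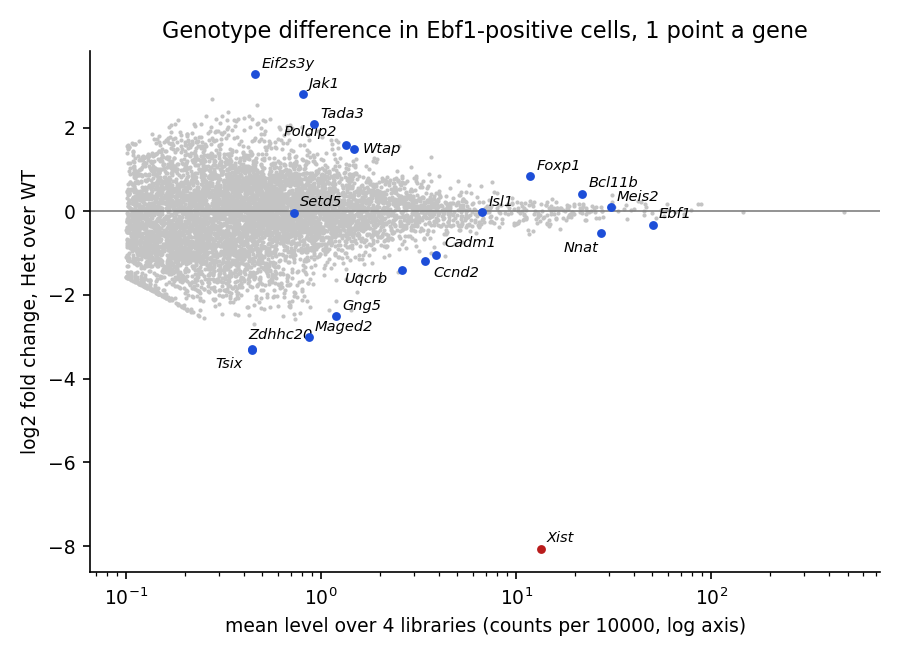
Log2 fold change between Het and WT in Ebf1-positive cells against the mean level over 4 libraries (log axis), 1 point for each of 7579 genes; red marks the gene called by limma and blue other named genes, of which Ebf1, Isl1 and Foxp1 are of the rule. Xist stands apart at -8.06, and the spread of all other genes widens as the level falls.

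The 5 genes higher and the 5 lower in Het with the lowest unadjusted p and separate genotypes all had adjusted p = 0.959 (limma). Jak1, a cytokine signalling kinase, averaged 0, 0.3295, 1.96 and 0.921, and Tada3, a subunit of acetyltransferase complexes, averaged 0.321, 0.236, 1.99 and 1.12. Wtap, Poldip2 and Eif2s3y were the other 3 on the higher side. Maged2, an X-linked gene, averaged 1.67, 1.46, 0 and 0.327, and Zdhhc20, a palmitoyltransferase gene, averaged 0.760 and 1.01 in the WT libraries and was at 0 in the others, which allows a change of at least 1.42-fold. Tsix, Uqcrb and Gng5 were the other 3 on the lower side. Within excitatory neurons, where limma called 8 genes (0.103% of 7737, with 0.0517% in each direction and 4.76% at an unadjusted p under 0.05), the log2 fold changes of Jak1, Tada3, Maged2 and Zdhhc20 were 0.11, 0.03, 0.04 and -0.05.

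Genes that the study named for its cluster 3 were read in the members as a list. Of 12 tested, 0 were called, 4 had an unadjusted p under 0.05 (all genes tested, 3.84%) and 12 were lower in Het, against 4089 of 7579 genes, with a median log2 fold change of -1.001. The study drew this list, which is mixed in direction, from the same libraries, so no direction of the list as a whole is read from it, and the values are not independent evidence. Ccnd2 averaged 4.12, 5.13, 1.22 and 3.14 (log2 fold change -1.18, SE 0.376, adjusted p = 0.959 by limma), and 1 cell each held 66 of the 117 Ccnd2 UMIs of WT6 and 35 of the 45 of Het9. Without these 2 cells, left out after the values were seen, it averaged 4.12, 1.65, 1.22 and 1.23 (log2 fold change -1.03, SE 0.438, adjusted p = 0.957 by limma), so that 3 libraries lay between 1.22 and 1.65 and WT3 stood above them. In the other GABA cells Ccnd2 averaged 19.4, 18.1, 28.1 and 33.8 and was higher in Het (log2 fold change 0.71, SE 0.103, adjusted p = 0.00442, limma), where 11 genes were called (0.145% of 7601, 0.0789% higher and 0.0658% lower in Het, with 4.99% at an unadjusted p under 0.05). The difference between these changes was -1.90 (SE 1.09, adjusted p = 0.931, limma). Cadm1, a cell adhesion gene, averaged 6.91, 3.75, 2.15 and 2.68 (log2 fold change -1.05, SE 0.341) and Nnat, an imprinted gene, averaged 34.3, 29.7, 18.53 and 26.4 (-0.53, SE 0.218). Genotypes did not overlap for 6 of the 12 genes, Ccnd2, Cadm1 and Nnat among them, as for 33.2% of all genes tested.

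Of the other lists, taken without genes of the rule and apart from the sex genes with Xist, none held a called gene by limma at full depth. Among 13 SETD5 partners Hdac3, the deacetylase subunit, averaged 1.08, 1.12, 0 and 0.529 (log2 fold change -2.26, SE 0.801, adjusted p = 0.959 by limma), and the list's median was -0.11. Among 8 subpallial lineage factors Dlx5 and Dlx6os1 had an unadjusted p under 0.05, both on the lower side, and among 24 axon guidance genes Nrp1 and Epha5, also lower, against 3.84% of all genes tested. Apart from the sex genes, medians ran from -0.59 for the 5 genes of GABA synthesis and transport to 0.73 for the 3 indirect pathway genes.

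The genotype difference in the members was then set against that in other cells of the same libraries. Against the other GABA cells 0 of 8361 genes were called by limma (0%) and 404 (4.83%) had an unadjusted p under 0.05, and against excitatory neurons 0 of 8456 were called (0%) and 446 (5.27%) had an unadjusted p under 0.05. Zdhhc20 had the lowest unadjusted p in both (differences of -3.54 and -3.24, adjusted p = 0.931 and 0.914). In the members' own fit, thinning to 3000 UMIs kept the 76 members of at least that depth and gave 7 called genes. Foxp1 of the rule was among them, which is no test. The others were Xist, Ccnd2 (log2 fold change -1.99, adjusted p = 0.00161, limma), Nnat (-0.87, adjusted p = 0.00653), Dlx6os1 of the subpallial list (-2.85, adjusted p = 0.0427), Ndufb10 (-3.02, adjusted p = 0.00140) and Hbb-bs (1.27, adjusted p = 0.0434). Without the WT6 and Het9 cells richest in Ccnd2, thinning left 1 called gene, Xist, and Ccnd2 was at -1.91 (adjusted p = 0.523, limma). Leaving out Het5 gave 12 called genes, including 3 hemoglobin genes. The Het arm was then Het9 alone, assumed to vary like the WT pair, and 193 of the 308 hemoglobin UMIs of Het9 lay in 1 cell. Leaving out Het9 changed no call, and leaving out WT3 or WT6 gave 0, although Xist was at -8.09 and -8.04 there.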

How the data were processed

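Cells of 4 sorted cortical libraries were measured by droplet RNA sequencing. Per the submitters' processing notes, Cell Ranger 2.1, Seurat 2.3.0 and mm10 were used. Annotation, strand setting and cell filters were not given in the sources used here. Each value deposited is a natural log, taken of 1 plus the gene's counts scaled to 10000 per cell, for 16600 genes in 6562 cells. Columns outside the sample labels numbered 0. Dividing by the lowest value of a cell after undoing the log gave whole UMIs for 100% of 14848520 values (tolerance 0.001), with 8205330 to 11742956 UMIs per library.

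The members, gene lists and tests were chosen with earlier results of these data known. Mean counts per 10000 per library were tested with limma 3.58.1 (R 4.3.3, eBayes with trend, two-sided) on log2(mean + 0.1) for genes with a mean of at least 0.1, calling genes at a Benjamini-Hochberg adjusted p under 0.05. Cell-name prefixes gave the genotype of a library and were not matched to a numbered sample. Fold changes on this scale understate those of low genes. Within-library differences between classes were tested alike. Single values had an exact permutation test. No count model was fitted. Excitatory neurons held Neurod2 and Neurod6 and neither Gad1 nor Gad2, and Lhx6 interneurons held Lhx6 with Gad1 or Gad2. All comparison classes lacked UMIs of Ebf1, Top2a, Reln and Eomes. Genes were named by rule as those of the cell rule, Setd5 and sex genes, called genes, 5 per direction of lowest p, the leading and lowest genes and the listed genes. Doublets were scored with Scrublet in scanpy 1.11.5 (score above 0.25, 56 cells). Alternatives were other pseudocounts, no filter, each library left out, summed UMIs, cells thinned to 3000 UMIs, doublets left out, robust eBayes and other limits on markers. Scripts were tested on simulated data. A few genes are not reported here. Coordinates are from GENCODE M21 on GRCm38 (mm10).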

Additional observations from a re-analysis of the deposited data

How the results depend on the processing

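No paired analysis was possible because cell-name prefixes and sample labels have no replicate number in common. The count of 1 called gene in the members ranged from 0 (without WT3, with 14 genes at an unadjusted p under 0.05, or WT6, with 43) to 12 (without Het5), was 7 with cells thinned to 3000 UMIs and 2 with 1 of the 6 markers required, where Eif2s3y joined Xist. It was 1 under all other alternatives, including members with at least 10 Ebf1 UMIs, members without the cell holding Igfbp7, and members without the WT6 and Het9 cells richest in Ccnd2, thinned or not, which were chosen after seeing the data. Both counts of differences from other classes were 0 under all alternatives run. Setd5 changed sign to 0.29 with 3 markers required and 0.37 without cells holding Neurod2, Neurod6 or Lhx6, and to 0.54 and 0.46 without WT3 and Het9, in a range from -0.60 to 0.54 with a library left out. The difference in median UMIs per member, 2.5, became -396 for means and ran from -230.5 to 235.5 with a library left out. The cause was not tested. The share kept its direction under all alternatives run, from -1.52 (1 marker required) to -0.353 percentage points (without Het5), and with 1 marker required or doublets left out the genotypes did not overlap (exact p = 0.333, the smallest possible). With 9 members in Het5, 1 UMI weighs 0.315 counts per 10000, and low genes could not be resolved.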

Other observations

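Many Ebf1 UMIs were also seen outside the rule. Of 86 kept cells with at least 10 Ebf1 UMIs, 64 were members and 22 were not, with 3, 6, 9 and 4 of these in WT3, WT6, Het5 and Het9. Of the 22, 11 met the rule but for Top2a, Reln or Eomes. Among those lacking these genes, 7 had 1 marker and 2 had 0. The rest held at least 1 of these genes and too few markers. Bcl11b was found in 18, Gad1 or Gad2 in 15 and Neurod2 or Neurod6 in 12, and the median was 7215 UMIs per cell against 3801 in the members. Het5, which had the fewest members, had the most of these cells.

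Of the 30 cells that met the rule but for the genes kept out, 19 held Eomes, 11 Reln and 10 Top2a. Among the 224 cells whose barcode occurs under all 4 prefixes, 3 held Ebf1 and 0 met the marker part of the rule.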
